A study of Mus musculus with 35 samples.

Results

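A set of 1795 Brg1 binding sites in the newborn mouse retina carried neither of the active histone marks mapped at birth and was acetylated on histone H3 lysine 27 (H3K27Ac) later. These sites were taken from the 50861 peaks of a single Brg1-FLAG library at postnatal day 0 (P0). They overlapped no H3K27Ac peak and no H3K4me3 peak in any of the 4 wild-type P0 libraries of those marks, and overlapped by at least 1 bp an H3K27Ac peak in both wild-type replicates at P14 or in both at P21. They made up 3.53% of all Brg1 peaks and 7.24% of the 24782 Brg1 peaks without a P0 mark. They are called late-acetylated Brg1 peaks here. The sites were chosen by the presence of P0 Brg1 peaks, the lack of P0 H3K27Ac and H3K4me3 peaks and the presence of P14 or P21 H3K27Ac peaks, so the values of those libraries are given as a description with no test. The remaining 22987 Brg1 peaks without a P0 mark (other unmarked peaks) and the 26079 Brg1 peaks with a P0 mark are used for comparison.

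The series profiled mouse retinae by ChIP-seq, in which chromatin fragments recovered with an antibody are sequenced and enriched stretches are called as peaks. The Brg1-FLAG library came from P0 retinae with the genotype BRG-FLAG, a knock-in strain carrying a tagged Brg1 protein, provided as flash-frozen tissue by the laboratory that made the strain. Histone marks were mapped in wild-type retinae at P0, P12, P14 and P21 and in Brg1-deficient (BRG1 -/-) retinae at P12. In the study, Brg1 was removed by a Chx10-Cre transgene acting on floxed Brg1 in retinal progenitor cells. That transgene is mosaic, so the ChIP-seq animals were mostly those with microphthalmia, in which fewer cells would have kept Brg1. Wild-type H3K27Ac was mapped in 2 libraries each at P0, P14 and P21 and in 1 at P12, with 2 Brg1-deficient libraries at P12. Wild-type H3K4me3 was mapped in 2 libraries each at P0, P14 and P21, with 1 wild-type and 1 Brg1-deficient library at P12. H3K27me3 was mapped in 2 wild-type libraries at each of the 4 stages and in 1 Brg1-deficient library at P12. A second antibody was used for H3K27me3 at P12, so that stage and antibody cannot be told apart there. The labels do not say whether replicates came from separate animals, so p-values measure only the spread between these libraries. The labelled tissue was not checked against marker genes, since peaks were not assigned to genes here, and no value in these files measures Brg1 loss.

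Brg1 (Smarca4) is an ATPase of the SWI/SNF complexes, which move and evict nucleosomes. H3K27Ac marks active promoters and enhancers, H3K4me3 marks promoters, and H3K27me3 is the mark of Polycomb repression. In the mouse retina the first postnatal weeks are the period in which the last progenitor cells leave the cell cycle and rods, bipolar cells and glia mature, and many regulatory elements of mature neurons become active. Retina is a mixture of cell types, so that a mark in more cells and a stronger mark per cell cannot be told apart in these libraries.

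The libraries differed in how many peaks they gave. The H3K27Ac libraries held between 17433 and 50005 peaks, and at both P14 and P21 replicate 1 was the smaller one, with 17433 and 18718 peaks against 50005 and 45833 in replicate 2. The rule asks for both replicates, so the smaller library limited membership: with replicate 2 alone at each stage the same rule gave 4993 sites, and with replicate 1 alone it gave 1860. The H3K4me3 libraries held 18534 to 24124 peaks, with P21 replicate 1 highest. The H3K27me3 lists held 12188 to 30996 islands, and the list of P14 replicate 2 named no island on chromosome X. Sequencing depth is not given by the peak lists, and a site without a peak in a library may still hold signal below the threshold of the peak caller.

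At P0, Brg1 occupancy of the late-acetylated peaks was slightly below that of the whole library, whose median peak height was 4.28. Their median Brg1 height, the fold enrichment over background at the peak, was 4.05 (range 2.25 to 9.67). The other unmarked peaks had a median height of 3.93, and the peaks with a P0 mark had one of 5.06. Their median length was 469 bp, between the 414 bp of the other unmarked peaks and the 736 bp of the marked peaks. When the unmarked Brg1 peaks were split into 4 groups at the quartiles of height, the late-acetylated share was 6.40%, 5.85%, 6.64% and 10.1% from the weakest group to the strongest. Only the strongest group thus held a visibly larger share, and even there most unmarked Brg1 peaks were not acetylated later.

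The strongest Brg1 sites of the set were not its most acetylated ones. The highest Brg1 enrichment, 9.67-fold, was at chr8:123040707-123044891 (mm9, the build named in the submitters' processing notes, for all positions given). Its H3K27Ac height was 6.34 and 7.42 in the P14 replicates and 7.27 in P21 replicate 2, with no peak in P21 replicate 1. The next, chr6:145804543-145805593, had a Brg1 height of 9.0 and H3K27Ac heights of 4.35 and 6.29 in the P21 replicates. By mean rank of H3K27Ac over the 4 P14 and P21 libraries, these sites stood at percentiles 36.2 and 26.6 of the set.

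Some of the late-acetylated peaks lay beside P0 active chromatin. A P0 H3K27Ac or H3K4me3 peak lay within 1 kb of 541 of them (30.1%), compared with 26% of the other unmarked peaks. The median distance to the nearest P0 H3K27Ac peak was 3492 bp, with quartiles of 1029 and 12592 bp. By chromosome, the late-acetylated share of unmarked Brg1 peaks ran from 4.08% on chromosome X (4 of 98) to 11.8% on chromosome 14 (82 of 696).

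Membership rested on both later stages for most sites. Of the 1795 sites, 1113 were acetylated in both replicates at P14 and in both at P21, 205 met the rule at P14 alone and 477 at P21 alone. Most of the latter 2 groups had a peak in 1 replicate of the other stage. Of the 477, 449 had a peak in P14 replicate 2 and 2 in P14 replicate 1. Of the 205, 160 had a peak in P21 replicate 2 and 12 in P21 replicate 1. By library, an H3K27Ac peak covered 73.5% and 98.4% of the sites at P14 and 89.2% and 97.5% at P21. The lowest share was in the smallest library, P14 replicate 1. When present, the acetylation was above the typical peak of its library. Median heights over the sites were 7.24 and 9.74 at P14 and 6.90 and 7.39 at P21, while the medians over all peaks of those libraries were 5.96, 4.85, 4.90 and 4.75.

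**Figure D1:**
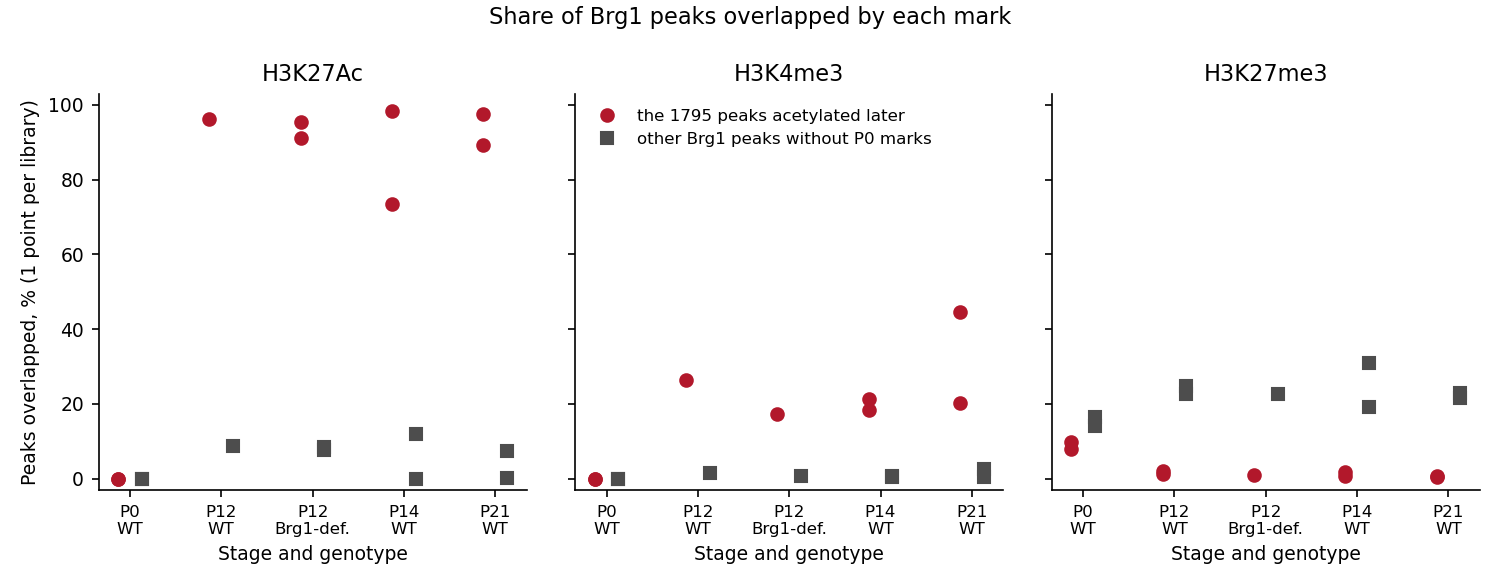
Share of Brg1 peaks (y axis, %) overlapped by H3K27Ac, H3K4me3 or H3K27me3 in each library (1 point per library) by stage and genotype (x axis). Circles are the 1795 late-acetylated peaks and squares the 22987 other unmarked peaks; the circles stand at 91.0% to 96.2% for H3K27Ac at P12 and below 3% for H3K27me3 from P12 on, while P0 H3K27Ac and H3K4me3 are 0 by the rule.

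The most acetylated site was chr11:78161109-78162271. Its H3K27Ac height was 35.2 and 32.8 at P14 and 26.98 and 22.9 at P21. At P12 it was 27.5 in wild-type retina and 31.2 and 25.4 in the Brg1-deficient libraries. The 3 P12 values thus lay within the range of the wild-type replicates of the later stages, and the Brg1-deficient values lay on both sides of the wild-type one. Next came chr9:62907792-62908235, with 21.4 and 25.8 at P14 and 28.8 and 23.5 at P21, and with 17.9 in wild-type and 12.1 and 15.9 in Brg1-deficient retina at P12. The remaining sites of the 10 highest had H3K27Ac heights between 16.6 and 41.4 at P14 and between 15.9 and 30.2 at P21. Every one of these 10 had a peak in all 3 P12 libraries. The nearest P0 H3K27Ac or H3K4me3 peak lay 393 bp from the first site, 337 bp from the next and 5 to 3872 bp from the remaining ones.

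Acetylation of these sites was in place by P12, a stage that the rule did not use. In wild-type P12 retina 1726 of the 1795 sites (96.2%, 95% Wilson interval 95.2% to 97%) had an H3K27Ac peak, with a median height of 8.30. The same library covered 8.82% of the other unmarked peaks. The rule had split the groups by H3K27Ac at P14 and P21, so this contrast at a nearby stage is not independent of it. Intervals here and below count peaks, cover counting error only, and say nothing of the spread between retinae. Only 16 sites had no H3K27Ac peak in any of the 3 P12 libraries.

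**Figure D2:**
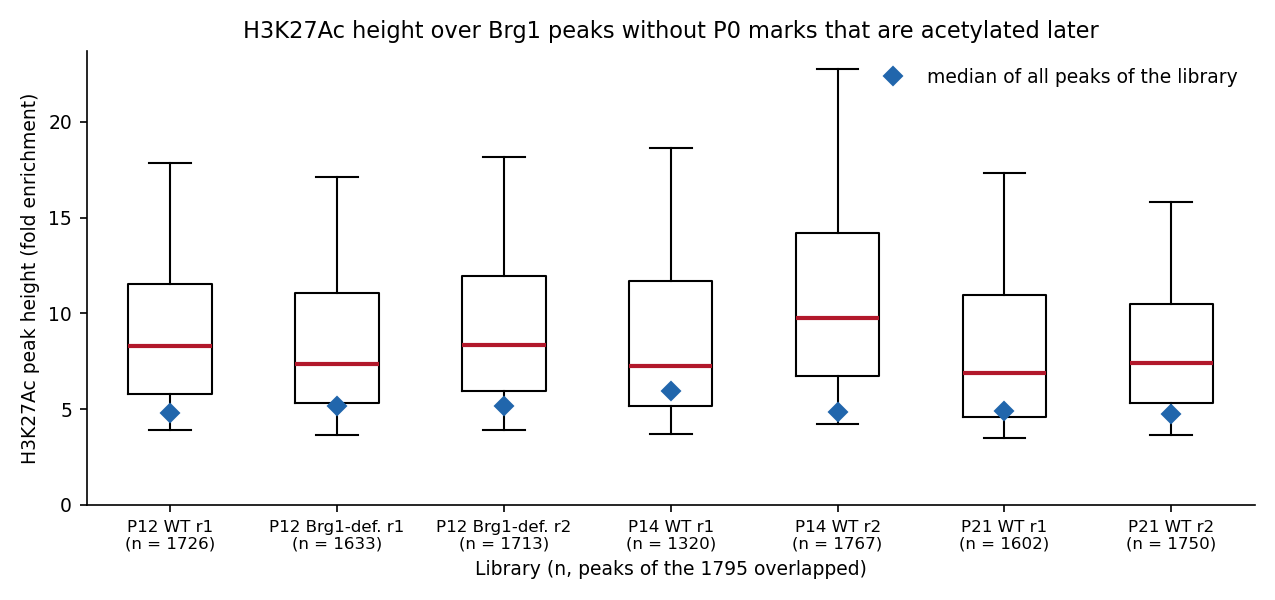
Height of H3K27Ac peaks (y axis, fold enrichment) over the late-acetylated Brg1 peaks in each library (x axis, with the number of sites overlapped). Boxes span the quartiles with the median in red, whiskers reach the 5th and 95th percentiles, and diamonds are the median of all peaks of the library; the red medians, 6.90 to 9.74, stand above the diamonds in all 7 libraries.

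The comparison of Brg1-deficient with wild-type P12 retina asked whether these sites were acetylated in retinae with mosaic removal of Brg1. Signal from cells that kept Brg1 cannot be told apart from that of cells without it. Most of the sites were acetylated in both genotypes. H3K27Ac peaks covered 1633 (91.0%) and 1713 (95.4%) of the 1795 sites in the Brg1-deficient replicates. Of the 1726 sites with a wild-type P12 peak, 1573 (91.1%, interval 89.7% to 92.4%) had a peak in both Brg1-deficient libraries. Over all 47404 H3K27Ac peaks of the wild-type P12 library the corresponding share was 60.3%. Those peaks had a median length of 444 bp, while the wild-type P12 peaks over the late-acetylated sites had one of 1803.5 bp. A longer peak has more room to overlap another, and the part of length in these shares was not tested. Among Brg1 peaks with a wild-type P12 H3K27Ac peak it was 93.1% for those with a P0 mark and 41.8% for the other unmarked peaks.

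These shares followed the height of the wild-type peak. At the late-acetylated sites, 59.8% of wild-type peaks below 4-fold were found in both Brg1-deficient libraries, followed by 81.6% of those between 4- and 6-fold and 93.2% of those between 6- and 8-fold. At 8- to 12-fold the share was 96.8% and from 12-fold up it was 99%. The Brg1 peaks with a P0 mark gave 67.2%, 81.8%, 97.8%, 99.4% and 99.4% in the same bins. Within each bin the late-acetylated sites gave a slightly lower share than the marked ones. The difference between the groups was not tested.

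Late acetylation with and without Brg1 at P0 could be set side by side at the level of wild-type P12 H3K27Ac peaks that were clear of P0 marks and acetylated later by the same rule. Of the 1374 that overlapped a P0 Brg1 peak, 87.6% were found in both Brg1-deficient libraries. Of the 6713 that did not, 66.8% were. The gap was widest in the lower bins, 61.1% against 46.7% below 4-fold and 81.3% against 56.7% at 4- to 6-fold, and narrowed to 94.3% against 86.1% at 6- to 8-fold. From 12-fold up the shares were 100% and 99.2%. By replicate, the shares with P0 Brg1 were 90% and 95.6% and those without it 71.2% and 84.3%, so the share with Brg1 was the higher one in each Brg1-deficient library. Longer peaks have more room to meet both a Brg1 peak and a Brg1-deficient one, and peak length was not matched here. All shares start from the 1 wild-type library, and the difference was not tested.

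**Figure D3:**
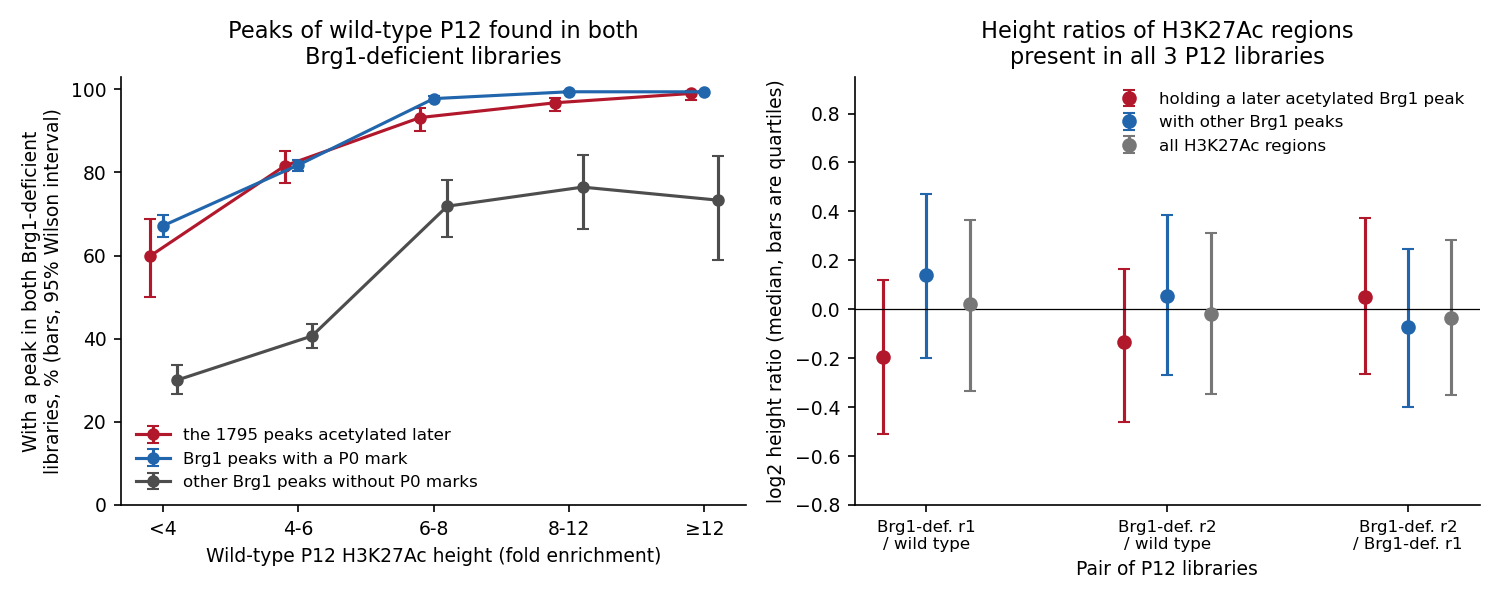
Left, share of sites with a wild-type P12 H3K27Ac peak that also have a peak in both Brg1-deficient P12 libraries (y axis, %, bars are 95% Wilson intervals) by wild-type height (x axis, fold enrichment), for late-acetylated (red), P0-marked (blue) and other unmarked (dark grey) Brg1 peaks. Right, log2 ratio of H3K27Ac height between pairs of P12 libraries (y axis; points are medians and bars quartiles) for regions with a peak in all 3 libraries that hold a late-acetylated site (red), hold other Brg1 peaks (blue) or are of any kind (grey); those holding a late-acetylated site have medians of -0.20 and -0.13 against wild type and 0.05 between the Brg1-deficient replicates.

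Among H3K27Ac regions present in all 3 P12 libraries, peak height at the late-acetylated sites was slightly lower in Brg1-deficient retina. Heights were scaled between libraries by the median of these shared regions. The 1294 regions with a late-acetylated site had a median log2 ratio to wild type of -0.20 in replicate 1 and -0.13 in replicate 2. The 13815 regions that held other Brg1 peaks had medians of 0.14 and 0.06. The ratio between the 2 Brg1-deficient replicates had a median of 0.05 at the late-acetylated sites and -0.07 at the others, so the offset from wild type was larger than that between the replicates at the late-acetylated sites. A decrease of at least 2-fold was seen in 5.56% and 4.17% of the regions with a late-acetylated site, and an increase of at least 2-fold in 1% and 0.464%. Over all regions present in the 3 libraries, the decreases were 2.46% and 2.56% and the increases 3.25% and 2.69%. All of the ratios to wild type share the 1 wild-type library. The sites were chosen by H3K27Ac peaks in wild-type retina at P14 or P21, and the regions with other Brg1 peaks were not. The offset from wild type is thus not independent of the rule, and its cause was not tested.

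No single site passed the test of this comparison. In a limma fit of log2 height over 32692 merged P12 regions, 0 regions (0%) passed an adjusted p of 0.05 (Benjamini-Hochberg). The late-acetylated sites were represented by 1742 members in 1404 of these regions, and the other 53 lay in no region with a peak in at least 2 of the 3 libraries. At an unadjusted p under 0.05 there were 19 of the 1404 regions (1.35%), compared with 3113 of all regions (9.52%). Among regions with a peak in all 3 libraries there were 90 of 1294 and 1569 of 23219, so the lower share was not seen there. The median fitted difference was -0.16 on the log2 scale over the 1404 regions and -0.07 over all regions. With 1 wild-type library against 2 the spread rests on 1 residual degree of freedom per region, so that moderate differences were not detectable.

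A minority of sites were acetylated in 1 genotype. At P12, 28 sites (1.56%) had a wild-type peak and none in Brg1-deficient retina. A wild-type peak and 1 Brg1-deficient peak were found at 125 (6.96%). Peaks in both Brg1-deficient libraries but not in wild-type retina were found at 22 (1.23%). In the same order, the shares were 1.55%, 2.79% and 4.31% of the Brg1 peaks with a P0 mark, so the first share was close to theirs. Of the other unmarked peaks they were 2.59%, 2.55% and 1.09%, though 86.0% of those had no P12 peak in any library. The highest wild-type peak without a Brg1-deficient one, at chr10:59466964-59467340, was 19.2-fold. It belonged to a wider acetylated region whose scaled height was 20.6 in wild-type and 19.3 on average in Brg1-deficient retina. The region was thus acetylated in both genotypes, while the Brg1-deficient peaks did not reach the Brg1 site. No peak reached that site in either wild-type P14 library, and its P21 heights were 6.25 and 11.4. A P0 mark lay 68 bp from it. For 12 of the 28 sites, 4 with 1 and 8 with both libraries, Brg1-deficient peaks lay elsewhere in the merged region.

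The second-highest kept its acetylation at the later stages. At chr9:72276412-72276965 wild-type H3K27Ac was 14.1 at P12, 15.4 and 20.99 at P14 and 17.1 and 13.1 at P21, and neither Brg1-deficient library had a peak. The region had a peak in 1 P12 library and did not enter the fit. In all, 16 of the 28 sites had no Brg1-deficient peak anywhere in their merged region.

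The sites that met the rule at P21 alone were the least regular at P12. A peak in wild-type and in both Brg1-deficient P12 libraries was found at 96.5% of the 1113 sites acetylated at both later stages and at 88.8% of the 205 sites that met the rule at P14 alone. Of the 477 that met it at P21 alone, 66.5% had all 3 peaks, and 14 of the 16 sites with no P12 peak were among them.

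H3K4me3, the promoter mark, appeared at about 1 site in 5. In both P14 libraries 301 sites (16.8%) were covered and in both P21 libraries 362 (20.2%), and 393 (21.9%) were covered in both replicates of at least 1 of these stages. Of the other unmarked peaks 0.57% met the same condition. The rule had split the groups by H3K27Ac, also an active mark, at these same stages, so this contrast is not independent of it. By library the share was 26.4% in wild-type P12 retina, 18.4% and 21.3% at P14, and 44.6% and 20.2% at P21. P21 replicate 1 stood apart, and 280 sites (15.6%) had H3K4me3 in that library alone. No H3K4me3 peak in any library was found at 972 sites (54.2%), so that most of the set lacked the promoter mark at every stage mapped.

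Sites that acquired H3K4me3 were also the more acetylated ones. The 393 sites had a median H3K27Ac height of 11.5 in wild-type P12 retina and 11.9 and 14.7 in the P14 libraries. The 972 sites without H3K4me3 had medians of 6.96 at P12 and 6.09 and 7.98 at P14. Their Brg1 heights at P0 were alike, with medians of 3.97 and 4.08. For 185 of the 393 sites (47.1%) the later H3K4me3 region reached a peak of that mark already present at P0, and for the other 208 it did not. Both later H3K4me3 in a region shared with a P0 peak and H3K4me3 away from any P0 peak are therefore represented. The widths of these regions were not compared between stages.

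The highest later H3K4me3 was at chr10:126646343-126647195, with heights of 63.1 and 46.1 at P14 and 80.2 and 57.9 at P21. At P12 the height was 47.1 in wild-type and 48.4 in Brg1-deficient retina. At chr10:80051265-80051584 it was 67.0 and 56.3 at P14, 67.4 and 54.3 at P21, and 93.1 in wild-type and 68.7 in Brg1-deficient retina at P12. The next 3 sites, on chromosomes 2, 15 and 3, had P12 heights of 65.3, 82.2 and 84.7 in wild-type and 62.5, 67.4 and 67.6 in Brg1-deficient retina. In these 5 sites the mark was thus present in both genotypes. The Brg1-deficient value was lower in 4 of them, but these heights are not scaled, and the Brg1-deficient library was lower as a whole, with a median height of 23.4 over all its peaks against 27.7 in wild type. In the order given, the 5 sites lay 437, 25, 1049, 542 and 41 bp from a P0 H3K27Ac or H3K4me3 peak. Over the set, the median wild-type P12 H3K4me3 height was 23.9 at covered sites with a P0 mark within 1 kb and 6.51 at the others.

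Fewer of the sites had H3K4me3 in Brg1-deficient P12 retina than in wild-type retina, 312 (17.4%) against 474 (26.4%). Of the 474, 62.7% (interval 58.2% to 66.9%) had a Brg1-deficient peak, while over all 22846 wild-type P12 H3K4me3 peaks the share was 81.2%. By wild-type height the share at the late-acetylated sites was 25.2% below 5-fold, 54.0% at 5- to 10-fold, 84.2% at 10- to 20-fold and 91.4% from 20-fold up. Brg1 peaks with a P0 mark gave 26.2%, 62.0%, 95.3% and 98.6% in the same bins. The H3K4me3 peaks of the late-acetylated sites were lower as well, with a median wild-type height of 8.15 against 51.4 at the marked Brg1 peaks. The other unmarked peaks gave smaller shares than the late-acetylated sites, 18.2%, 30.0%, 46.7% (7 of 15) and 45.2% by bin and 31.2% of 362 in all. Among sites with H3K4me3 at a later stage and in wild-type P12 retina, the mark was found in Brg1-deficient retina at 150 of 171 whose region reached a P0 H3K4me3 peak and at 127 of 177 whose region did not. With 1 library of each genotype there is no replicate check and no test.

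A single site departed most from this pattern among those described. At chr11:78161109-78162271, the site with the strongest late H3K27Ac, H3K4me3 height at P12 was 80.0 in wild-type and 10.2 in Brg1-deficient retina. The wild-type replicates themselves ranged widely there, 11.6 and 50.6 at P14 and 72.6 and 36.8 at P21, so that the low Brg1-deficient value lay close to the lower P14 replicate. Over the merged H3K4me3 region the mean scaled height was 47.7 at P14 and 51.5 at P21. A low peak over the site therefore need not mean a low region, and the P12 libraries were not in that fit.

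H3K4me3 height did not separate P21 from P14 at any region. Of 21075 merged regions in the limma fit of the P0, P14 and P21 libraries, 0 (0%) passed an adjusted p of 0.05. The fit covered 536 of the sites in 428 regions, and the other 1259 sites lay in no tested region. At an unadjusted p under 0.05 there were 71 of the 428 regions (16.6%) and 1742 of all regions (8.27%). That excess was not stable: there were 2 of 162 and 1137 of 15065 among regions with a peak in every library, and 19 of 402 and 1518 of 20844 without P21 replicate 2. The median difference, P21 minus P14 on the log2 scale, was 0.19 over the 428 regions and -0.03 over all. With a pseudocount of 1 in place of 3.28, 21 of the sites were called higher at P21, where 170 of all regions (0.807%) were.

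H3K27me3, the Polycomb mark, covered few of the sites at P0 and almost none later. Islands of H3K27me3 covered 142 (7.91%) and 176 (9.81%) sites in the P0 replicates, and 124 (6.91%) in both. At P12 the wild-type libraries covered 39 and 23 sites and the Brg1-deficient library 20. At P14 the shares were 0.61% and 1.78%, and at P21 0.33% and 0.72%. The other unmarked peaks moved the opposite way, from 14% and 16.5% at P0 to 19.2% and 30.9% at P14 and 21.6% and 22.8% at P21. The islands themselves covered more of the genome later, 96.7 and 114 Mb at P0, 127 and 213 Mb at P14 and 142 and 152 Mb at P21. The part of covered length in that rise was not tested. The rule split both groups by later H3K27Ac, on the same lysine as H3K27me3. No later contrast of H3K27me3 between them is thus independent of the rule. Islands of neither P0 library covered 1601 sites (89.2%), against 82.2% of the other unmarked peaks, and since the rule left out the other 2 marks, these sites had none of the 3 at P0.

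The 124 sites in islands of both P0 libraries carried the Polycomb mark before they were acetylated. Of these, 90 (72.6%, interval 64.1% to 79.7%) lay in no wild-type island at P12, P14 or P21. Over all 8368 Brg1 peaks in islands of both P0 libraries 10.1% did so, and among the 2923 of them that were other unmarked peaks 8.76% did. In the later wild-type libraries the count of the 124 still covered was 25 and 12 at P12, 5 and 20 at P14, and 3 and 7 at P21. Only 1 of the 124 was covered in all 6 later wild-type libraries, compared with 65.9% of the 2923. H3K4me3 was found later at 56 of the 124 (45.2%) and at 315 of the 1601 sites without P0 H3K27me3 (19.7%). For 35 of the 56 the later H3K4me3 region reached a P0 peak of that mark, and of the 208 sites whose later H3K4me3 region reached none, 21 (10.1%) had H3K27me3 in both P0 libraries.

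**Figure D4:**
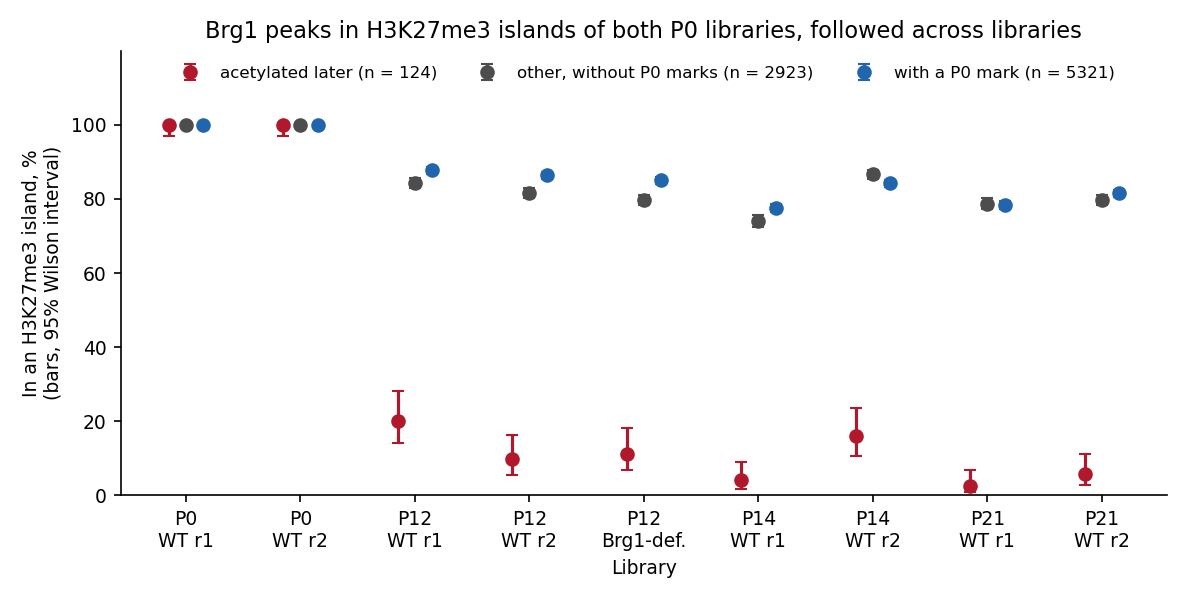
Share of Brg1 peaks (y axis, %, bars are 95% Wilson intervals over peaks) that lie in an H3K27me3 island of each library (x axis), for peaks in islands of both P0 libraries, which are at 100% in those by selection. The 124 late-acetylated peaks (red) stand at 2.42% to 20.2% in the later libraries, while the 2923 other unmarked peaks (grey) stand at 74.1% to 86.7% and the 5321 with a P0 mark (blue) at 77.7% to 87.7%.

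Island reads were high at P0 at some of these sites. At chr8:74090724-74091090 the islands over the site held 1256 and 2158 reads at P0, and no island covered it in any later library. Over its merged region the mean of scaled reads (CPM) was 352 at P0, 83.8 at P14 and 57.9 at P21 (log2 differences from P0 of -2.07 and -2.60, adjusted p = 0.0175 and 0.00996, edgeR quasi-likelihood test), so some H3K27me3 remained beside the site. Its H3K27Ac height was 25.8 and 19.0 at P14, and its H3K4me3 height was 20.8 and 21.5. At chr11:71943428-71945514 the P0 islands held 688 and 1103 reads, none covered it later, and H3K27Ac reached 27.9 and 25.6 at P14.

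Loss was incomplete at some of them. At chr7:52420757-52421400 the P0 islands held 1909 and 1639 reads, while an island of 303 reads remained in P14 replicate 2 and one of 56 reads in wild-type P12 replicate 1. H3K27Ac height at that site was 23.8 and 27.8 at P14 and H3K4me3 height 50.5 in both P14 libraries. The weak islands thus lay over a site with strong active marks in the same tissue. Of the 90 sites without a later island over them, 41 had a P14 or P21 island elsewhere in the merged region.

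Island reads were also tested between stages. edgeR's quasi-likelihood test was run on reads summed over 21757 merged regions of the P0, P14 and P21 libraries. It held 175 of the sites in 125 regions, and the other 1620 sites lay in no tested region. At P14 against P0, 36 of the 175 sites were in regions called lower and 3 in regions called higher at an adjusted p of 0.05, with 1.79% of all regions called lower, 6.53% higher and 8.31% in either direction. At P21 against P0 38 were lower and 3 higher, with 2.52%, 7% and, in either direction, 9.51% of all regions. Most of the 125 regions had islands in both P0 libraries, and 57 of them had none at P14 or P21, so those entered the test through the stage in which they were high, and these counts are no independent support of a fall.

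Regions with an island in every library avoid that condition. There were 5309 of them, 31 with late-acetylated sites. Those sites were still chosen by later H3K27Ac, on the same lysine, so the counts here are no independent support of a fall either. At P14, 22 of the 31 were called lower than at P0 and 1 higher, with 20.7% of all such regions lower and 21% higher. At P21, 25 were lower and 1 higher, against 22.5% and 21.8% of all. The median log2 difference over the 31 regions was -1.0 at P14 and -1.25 at P21, and over all 5309 it was 0.03 at both. The calls of the wider fit were unstable: the member count was 0 at P14 when the fit held the P0 and P14 libraries alone or no scaling was used, and 0 at P21 without either P21 replicate.

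Late islands without a P0 island were rare in the set. Of the 1601 sites free of P0 H3K27me3, 5 (0.31%) were in islands of both P14 or both P21 libraries. Of the 18900 other unmarked peaks free of it, 11.1% were.

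The late-acetylated Brg1 peaks tended to sit inside wide acetylated domains and off their summits. Across the 7 later libraries, the H3K27Ac peak over a site had a median length of 999 to 2261 bp. For Brg1 peaks acetylated at P0 in both replicates the medians in the same libraries were 721 to 1337 bp. The median distance from the Brg1 summit to the H3K27Ac summit was 272 to 465 bp for the late-acetylated sites and 151 to 188 bp for the P0-acetylated ones. The Brg1 summit still lay inside the acetylated peak at 73.2% to 93.9% of the sites covered in a library. A longer peak leaves room for a longer distance, and the part of length in the distance was not tested.

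**Figure D5:**
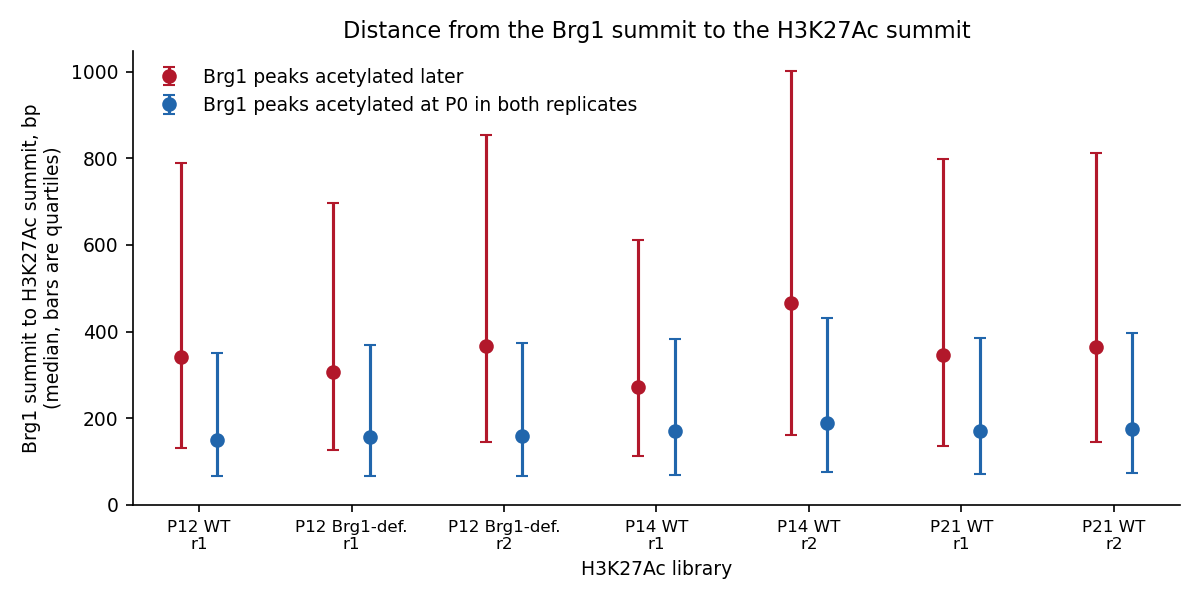
Distance in bp from the Brg1 summit at P0 to the summit of the overlapping H3K27Ac peak (y axis; points are medians and bars quartiles) in each P12, P14 and P21 library (x axis). Late-acetylated sites (red) have medians of 272 to 465 bp and Brg1 peaks acetylated at P0 in both replicates (blue) 151 to 188 bp.

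Several sites often shared a domain. The 1795 sites fell into 1426 of the 55773 merged P14 and P21 H3K27Ac regions, 1094 of which held 1 site, 237 held 2 and 95 held 3 or more. These regions had a median length of 2519 bp, compared with 492 bp over all merged regions, and longer regions have more room to meet a Brg1 peak. The region with most sites, chr11:78566054-78580645, held 7 of them among 9 Brg1 peaks. The next were chr2:146079015-146084267, with 6 sites and no other Brg1 peak, and chr4:148215071-148227377, with 6 sites among 9 Brg1 peaks. Sites of 1 region share their acetylated peak and are not independent of each other.

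The later region of 637 sites (35.5%) reached an H3K27Ac peak of the P0 retina, while that of 1158 sites (64.5%) did not. The first kind share a later region with a called P0 H3K27Ac peak, and the second lie in later regions without one. For 1110 sites (61.8% of the set) the later region reached neither a P0 H3K27Ac nor a P0 H3K4me3 peak. Signal below the threshold of the peak caller at P0 would not be seen here. Later H3K4me3 was found at 33.3% of the first and 15.6% of the second. P0 H3K27me3 covered 6.91% of both. Wild-type P12 H3K27Ac was present at 98.1% and 95.1%, and of those sites 93.8% and 89.6% had it in both Brg1-deficient libraries.

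At the edge of the rule, 65 sites (3.62%) overlapped the deciding acetylated peaks by less than 50 bp, with a median overlap of 360 bp over the set. The 3 sites just inside, at chr19:47304262-47304620, chr4:139679227-139679946 and chr4:147791056-147791671, overlapped by 1 bp and had Brg1 heights of 3.33, 4.51 and 4.46. Just outside were chr17:28521479-28522089 and chr1:91474076-91474417, which touched an acetylated peak without sharing a base, and chr2:27592793-27593182, which missed one by 1 bp, with Brg1 heights of 4.47, 3.23 and 4.46. A further limit of 50 bp would have taken in 45 more Brg1 peaks.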

How the data were processed

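The authors aligned reads to mm9 with BWA 0.5.9-r26 and called peaks with MACS2 2.0.9 and islands with SICER 1.1, per the submitters' processing notes. The deposited peak lists give each peak's fold enrichment, a ratio over background, with its −log10 p- and q-values and a score derived from q. The deposited H3K27me3 lists give island counts of ChIP reads. The read depth is not given in the sources used here. Of 35 samples, 27 have peak files, and input libraries were not used here. Overlaps were counted at 1 bp or more and checked against bedtools 2.31.1. Heights were scaled to the median of regions shared by all libraries, a pseudocount (the 5th percentile of heights, 3.25 for H3K27Ac and 3.28 for H3K4me3) was added, and log2 values were tested in limma 3.58.1 over regions with a peak in at least 2 libraries. Island reads proved to be counts, so edgeR 4.0.16 (TMM, quasi-likelihood) replaced the limma fit set out for them. P-values were Benjamini-Hochberg adjusted over all regions. Replicates 1 and 2 of H3K27me3 were not paired: their differences correlated at 0.02 to 0.08 between stages. The fits were tested on simulated data. Named sites were taken by rank: the 10 most acetylated later (1 per region), the 5 with highest Brg1, the 5 with highest later H3K4me3, the 5 highest wild-type P12 peaks absent in Brg1-deficient retina, the 5 most acetylated with P0 H3K27me3, 3 at each side of the overlap limit, and the 3 regions with most sites, each group described in part. The sites and these rules were chosen with earlier results of these data known. Gene lists were not used, since the annotation at hand is of another build.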

Additional observations from a re-analysis of the deposited data

How the results depend on the processing

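Of 83 alternative values for 13 results, 46 stayed close to the reported value and 37 moved. With the strongest 50% of later H3K27Ac peaks there were 1176 sites (696 acetylated at both stages), and with the strongest 50% of Brg1 peaks 692 (466). With 1 replicate left out at P14 and P21 the number ran from 1860 to 4993 (1127 to 2979). The share with wild-type P12 H3K27Ac was 88.8% where at least 50% of the Brg1 peak had to be covered and 85.5% with the strongest 50% of P12 peaks. The share of those found in both Brg1-deficient libraries was 82.4% and 94.9% under these settings, and 92.8% to 96.7% with 1 Brg1-deficient library. H3K4me3 at P14 was 11.1% with 50% covered, 13.5% without sites that had a P0 mark within 1 kb, and 18.4% to 21.3% with 1 library. At P21 it was 20.2% to 44.6% with 1 library. With 1 library H3K27me3 was 7.91% to 9.81% at P0, 0.613% to 1.78% at P14 and 0.334% to 0.724% at P21. A pseudocount of 1 gave 21 sites with a called H3K4me3 difference between P21 and P14, in place of 0. The H3K27me3 calls moved most. For P14 and P21 against P0, 39 and 41 sites were called in edgeR, 0 and 5 without scaling, 0 and 132 with only the compared stages in the fit, 127 and 137 in limma, 101 and 112 in limma with a pseudocount of 1, and 104 and 120 in DESeq2. With the replicate block they were 15 and 19, although the numbers did not pair the samples. Leaving out 1 library gave 18 to 65 calls at P14 (18 without P14 replicate 1, 23 without P0 replicate 2, 65 without P14 replicate 2) and 0 to 32 at P21 (0 without P21 replicate 1 or replicate 2, 26 without P0 replicate 2). The cause of these shifts was not tested. For H3K27me3, limma was the test set out before the values were known to be counts, and the DESeq2 and chromosome X alternatives were chosen after seeing the data. For H3K27Ac at P12, 0 regions were called under every alternative run, and leaving out a P12 library could be run only in a fit of all 7 later libraries. No paired analysis was possible for H3K27Ac at P12 and H3K4me3 because the groups compared share fewer than 2 replicate numbers in the sample titles. For P14 H3K4me3 these titles give replicates 2 and 3, while the deposited files carry 1 and 2. Numbers were taken from the titles. Single wild-type P12 libraries and unknown read depth limit every comparison of genotypes.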
